A study of Mus musculus with 6 samples.

Results

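Semaphorins are guidance proteins that steer growing axons and migrating neurons, plexins are their main receptors, and neuropilins are co-receptors that bind most secreted semaphorins and pass the signal to type A plexins. The ligand class 3 is secreted, classes 4 to 6 span the membrane and class 7 is anchored to its surface by a lipid. In the ventral forebrain, interneurons that leave the medial ganglionic eminence (MGE) carry neuropilins, and class 3 semaphorins of the developing striatum are known to repel them on their way to the cortex. The family was followed here as 31 genes, 20 semaphorins, 9 plexins and 2 neuropilins, taken by symbol from the 49315 genes of the count table. Of these, 30 passed the filter on low counts and were tested, and Plxnb3 did not.

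Gene counts came from RNA sequencing of dissected MGE tissue at embryonic day 14. The mutant group, labelled KO, was Nkx2.1-Cre; Prdm16fl/fl; Ai14, and the control group, labelled WT, was Nkx2.1-Cre; Prdm16+/+; Ai14. Both groups therefore carried the Nkx2.1-Cre driver, active in MGE progenitors, and the Ai14 fluorescent reporter, and they differed in the floxed Prdm16 allele. Each group had 3 libraries, and each library was 1 pool of 3 embryos (6 eminences), with 36517047 to 55552298 counts in the KO libraries and 33188277 to 46301483 in the WT libraries. The comparison asks how the MGE transcriptome differs once progenitors lose Prdm16, a zinc finger protein that controls transcription. Levels are CPM, counts scaled to a common library size by TMM factors, or CPM per kilobase of exon (RPKM) where genes are compared with each other. Changes are log2 fold changes of KO over WT with their standard error (SE), and p-values are those of the edgeR quasi-likelihood test, adjusted by Benjamini-Hochberg over all 18079 genes tested. A gene is called when its adjusted p is under 0.05.

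Prdm16 had 53.6, 51.3 and 45.8 CPM in KO 1 to 3, against 55.8, 47.0 and 45.5 CPM in WT 1 to 3 (log2 fold change 0.02, SE 0.09, edgeR adjusted p = 0.884). Counts per gene do not show whether the floxed exons were lost, so every direction below rests on the labels. Nkx2-1 and Lhx6, which define the MGE and its interneurons, were present at 637 to 861 and 472 to 521 CPM in the KO libraries and at 615 to 674 and 621 to 683 CPM in the WT libraries. KO 1 stood apart from the other pools on the second principal component (35.0, against -11.6 and -12.4 in KO 2 and KO 3 and -8.39 to -0.47 in the WT pools). It also had 1.92 CPM of Xist, against 721 and 1424 CPM in KO 2 and KO 3 and 1020 to 1168 CPM in the WT pools. For 22 of the 30 tested family genes, KO 1 had the highest level of the 3 KO pools. The counts of called family genes are therefore given with and without KO 1, and so are the changes of some single genes. Counts by class and for the marker lists rest on the fit with all pools only.

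The family was more often lower than higher in the KO pools. Of 30 tested genes 10 were called lower (33.3%, where 10.5% of all tested genes were), 1 was called higher (3.33%, against 9.72% of all tested genes) and 19 were not called, so 36.7% were called in either direction where 20.2% of all tested genes were. The median log2 fold change was -0.14 over the 30 genes and -0.002 over all genes tested, and 21 of the 30 were negative against 50.4% of all genes. Most changes were small, with a fold under 1.5 in 28 of 30 tested genes and in 9 of the 11 called. The counts moved with single pools. Without KO 1 there were 12 lower and 1 higher, and 41.5% of all genes were called, while the 5 fits without another pool gave 3 to 4 lower and 0 to 1 higher, with 6.4% to 10.8% of all genes called. The family median was -0.219 without KO 1, -0.159 to -0.10 without another pool, and -0.07 with each library's trend on exonic length removed, a correction added after seeing the data. In 13 of the 30 (43.3%) the KO pools lay wholly above (2) or wholly below (11) the WT pools, a share near the 39.9% of all tested genes. Because whole tissue was sequenced, fewer cells of a type and less RNA per cell cannot be told apart.

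**Figure D1:**
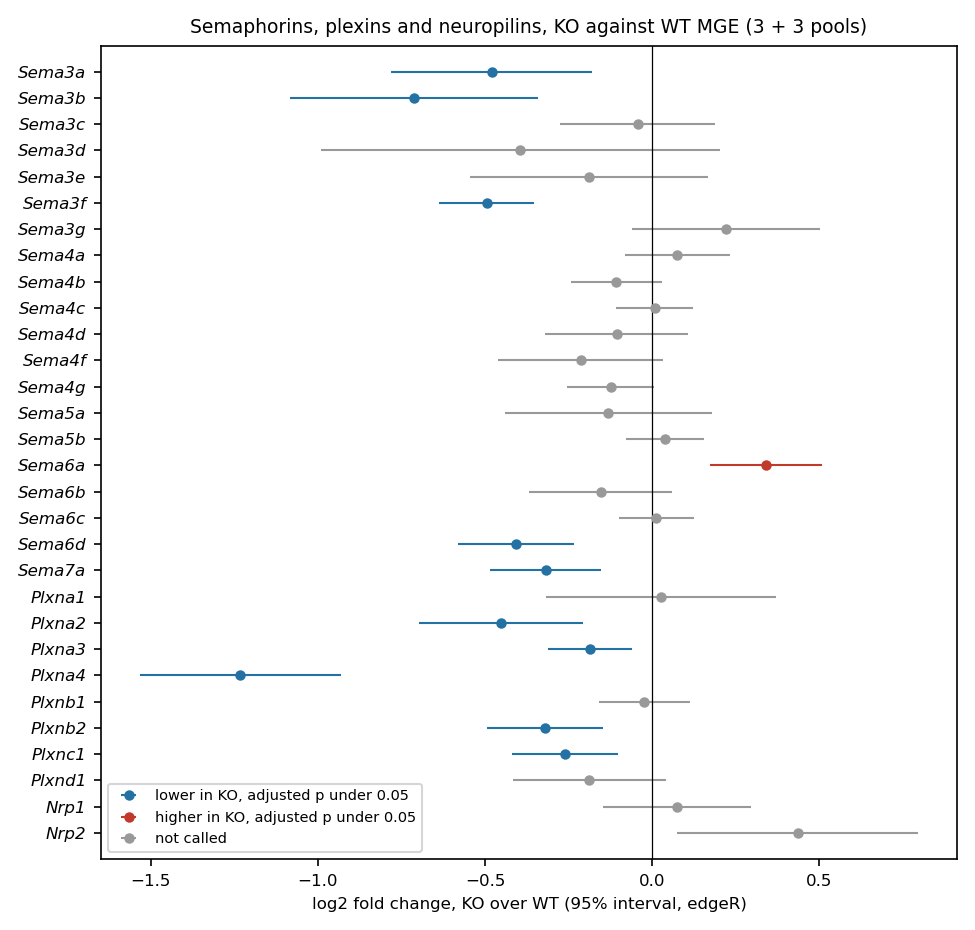
Log2 fold change of KO over WT on the horizontal axis for each of the 30 tested family genes, with 95% intervals from edgeR. Blue marks the 10 genes called lower in KO, red the 1 called higher (Sema6a) and grey the 19 not called, and Plxna4 lies farthest from 0 at -1.23.

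Levels per length spanned the family widely. Plexins filled most of the upper end. Plxnb2, the receptor of several class 4 semaphorins, was first in WT, with 47.1, 38.3 and 40.7 RPKM in KO 1 to 3 and 53.4, 52.2 and 51.9 RPKM in WT 1 to 3. Plxnb1, the receptor of Sema4d, followed with 44.4, 40.4 and 40.6 RPKM in the KO pools, against 43.0, 42.9 and 41.6 RPKM in the WT pools. These 2 genes differed by more than their spread in WT, while in KO their ranges overlapped. Plxna2 had the next level in WT at 39.6 RPKM, and its WT range overlapped that of Plxnb1. In KO its mean, 29.0 RPKM, ranked after those of Sema6c, Plxna1 and Plxna3. Its KO range (25.0 to 33.9 RPKM) overlapped those of Plxna1 (27.8 to 42.4 RPKM) and Plxna3 (29.4 to 32.3 RPKM). The KO order was taken with the exonic length only. Among ligands the membrane-bound Sema6c (37.4 ± 0.816 RPKM in KO and 37.0 ± 0.392 RPKM in WT, SD, n = 3 each), Sema4c (27.9 ± 1.08 and 27.7 ± 0.0334 RPKM) and Sema5b (24.2 ± 0.716 and 23.6 ± 0.569 RPKM) were the highest. The secreted class 3 was low, led by Sema3f at 7.32 ± 0.215 RPKM in KO and 10.3 ± 0.59 RPKM in WT, and Sema3a, Sema3b, Sema3d, Sema3e and Sema3g lay between 0.0677 and 1.19 RPKM in KO and between 0.0875 and 1.36 RPKM in WT. In WT, 15 genes exceeded 10 RPKM by exonic length. Sema6d (15.6 RPKM), Nrp1 (14.3 RPKM) and Sema4a (13.7 RPKM) also did so when the longest transcript was the length. Of the 30 neighbouring pairs in the WT order, 16 had overlapping ranges and so are not ordered beyond the spread between pools. With the longest transcript as the length, 22 genes changed rank, by at most 5 places.

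**Figure D2:**
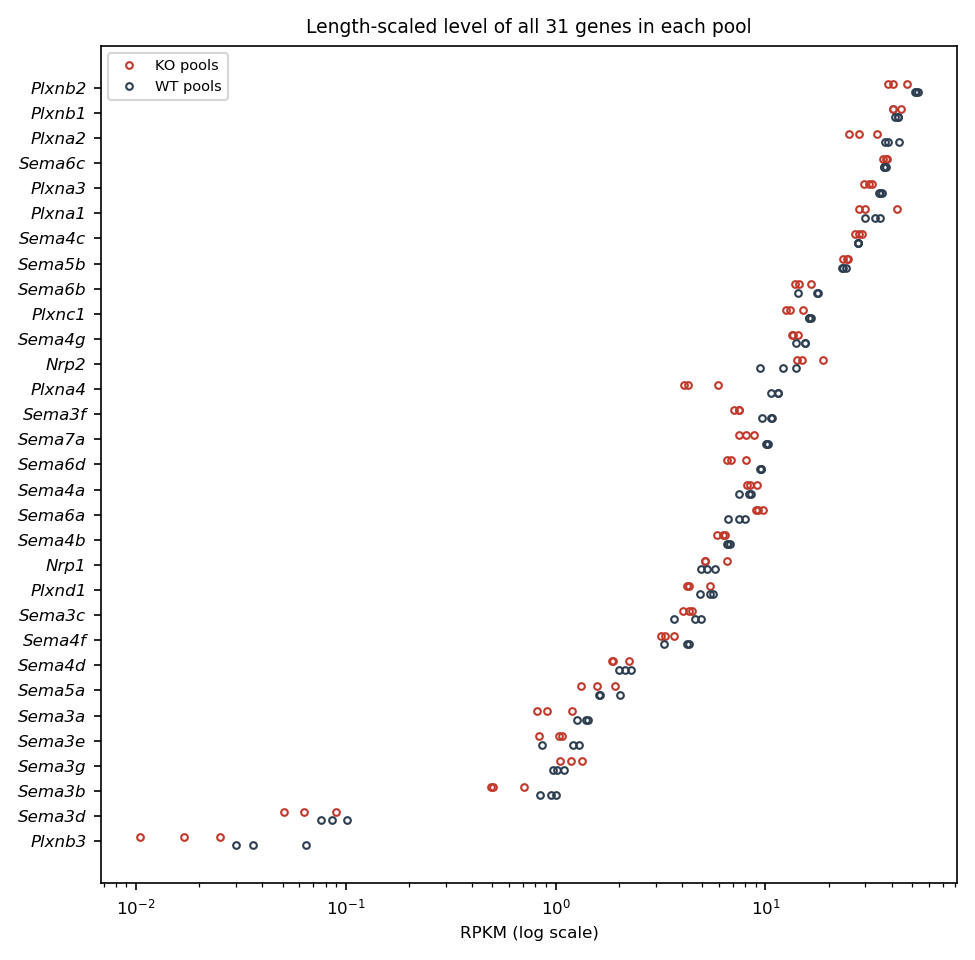
RPKM on a log scale for all 31 genes, 1 point per pool (red for KO above, dark for WT below within each row), ordered by the WT mean. Plxnb2 is at the top and Plxnb3, at 0.0175 RPKM in KO and 0.0435 RPKM in WT on average, at the bottom, and the red and dark points of Plxna4 are clearly apart.

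The type A plexins, which transmit class 3 signals with neuropilins and also bind class 6 semaphorins directly, held the strongest change. Plxna4 (GRCm38 chromosome 6, 32144268 to 32588192, minus strand), whose product pairs with neuropilins for Sema3a and binds class 6 semaphorins, had 84.1, 60.3 and 57.5 CPM in KO 1 to 3, against 162, 163 and 150 CPM in WT 1 to 3. All KO pools were far below all WT pools, and KO 1 was the nearest to them. It fell by 1.23 on the log2 scale (SE 0.132, 2.35-fold lower, edgeR adjusted p = 0.000846), and by 1.42 without KO 1. Plxna2, a receptor of Sema6a, had 583, 479 and 429 CPM in the KO pools, against 748, 656 and 638 CPM in the WT pools. The groups did not overlap, and KO 1 was the KO pool nearest to WT (log2 fold change -0.45, SE 0.11, edgeR adjusted p = 0.0209). Plxna3, the X-linked receptor that works with Nrp2 for Sema3f, had 254, 246 and 231 CPM in the KO pools, against 277, 283 and 273 CPM in the WT pools. It fell by a small amount, -0.19 (SE 0.0565, edgeR adjusted p = 0.0447), and the part of the uneven Xist levels in this X-linked gene was not tested. Plxna1, a receptor of Sema3a and Sema6d, was not called and was highest in KO 1, with 384, 252 and 270 CPM in KO and 270, 319 and 301 CPM in WT (log2 fold change 0.03, 95% interval -0.32 to 0.37, edgeR adjusted p = 0.916). Without KO 1 its log2 fold change was -0.18 (edgeR adjusted p = 0.0538). Gm26811, an antisense gene, shares 10.7% of the exonic length of Plxna1, so part of its count is uncertain, while the antisense Plxna4os3 shares 0.78% of that of Plxna4. Plxna2 lost its call in each of the 5 fits that left out a pool other than KO 1 (edgeR adjusted p from 0.0539 to 0.0827), and Plxna3 did so too (0.108 to 0.173), while Plxna4 was called in all 6. Plxna3 also missed the threshold with no filter on low counts (edgeR adjusted p = 0.0973) and with the length trend removed (0.163, log2 fold change -0.096), under which Plxna2 kept its call at -0.26 (0.0383).

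Within type A, Plxna4 made up a smaller share in every KO pool. Its share of the summed type A RPKM was 5.2%, 4.69% and 4.62% in KO 1 to 3, against 9.59%, 9.54% and 9.17% in WT 1 to 3. Plxna1 made up 33.8 ± 3.25% in KO and 27.6 ± 2.37% in WT (SD, n = 3 each). Plxna2 made up 29.5 ± 1.14% in KO and 33.4 ± 2.57% in WT. Plxna3 made up 31.9 ± 3.24% in KO and 29.6 ± 0.343% in WT. These shares are descriptive and depend on the annotated exonic lengths.

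Among the other plexins, Plxnb2 and Plxnc1 fell and the rest were not called. Plxnb2, which in mouse is known from neural tube closure and progenitor growth, had 364, 296 and 314 CPM in the KO pools, against 413, 403 and 401 CPM in the WT pools. The WT pools lay close together and all KO pools were below them (log2 fold change -0.32, SE 0.078, edgeR adjusted p = 0.0214). Plxnc1, the receptor of Sema7a, had 126, 104 and 110 CPM in KO, against 135, 138 and 135 CPM in WT, again with no overlap (log2 fold change -0.26, SE 0.0706, edgeR adjusted p = 0.0305). Plxnd1, the receptor of Sema3e that is prominent in blood vessels, had 39.8, 30.7 and 31.7 CPM in KO and 41.2, 35.7 and 39.5 CPM in WT and was not called (log2 fold change -0.19, edgeR adjusted p = 0.21), but without KO 1 it was (-0.31, edgeR adjusted p = 0.00269). Plxnb1 did not pass either (log2 fold change -0.02, 95% interval -0.16 to 0.11, edgeR adjusted p = 0.814). Plxnb3, a receptor of Sema5a, had 3, 4 and 9 counts in KO 1 to 3 and 9, 14 and 9 counts in WT 1 to 3, too few for the filter. Plxnb2 (edgeR adjusted p from 0.0713 to 0.0921) and Plxnc1 (0.0768 to 0.125) lost their calls in each of the 5 fits that left out a pool other than KO 1, and Plxnc1 also with the length trend removed (0.0577, log2 fold change -0.16).

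Of the co-receptors, Nrp2 was higher in every KO pool but was not called, and Nrp1 overlapped between the groups. Nrp2, which binds Sema3f, Sema3b and Sema3c, had 224, 168 and 178 CPM in KO 1 to 3, against 112, 165 and 144 CPM in WT 1 to 3. The highest WT pool was just under the lowest KO pool, and the WT pools were spread widely (log2 fold change 0.44, SE 0.156, 95% interval 0.07 to 0.80, edgeR adjusted p = 0.0852). DESeq2 called it (adjusted p = 0.011), and without KO 1 its log2 fold change was 0.31 (edgeR adjusted p = 0.298). Nrp1, the binding partner of Sema3a and also a co-receptor for vascular growth factor, had 63.9, 50.3 and 50.2 CPM in KO and 48.4, 56.1 and 51.7 CPM in WT (log2 fold change 0.08, 95% interval -0.15 to 0.30, edgeR adjusted p = 0.621). Nrp2 made up 74.1 ± 0.625% of the summed neuropilin RPKM in KO and 68.8 ± 2.78% in WT (SD, n = 3 each). This share depends on the length used. In WT the means were 11.9 RPKM for Nrp2 and 5.32 RPKM for Nrp1 by exonic length. By the longest transcript they were 20.9 and 14.3 RPKM.

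**Figure D3:**
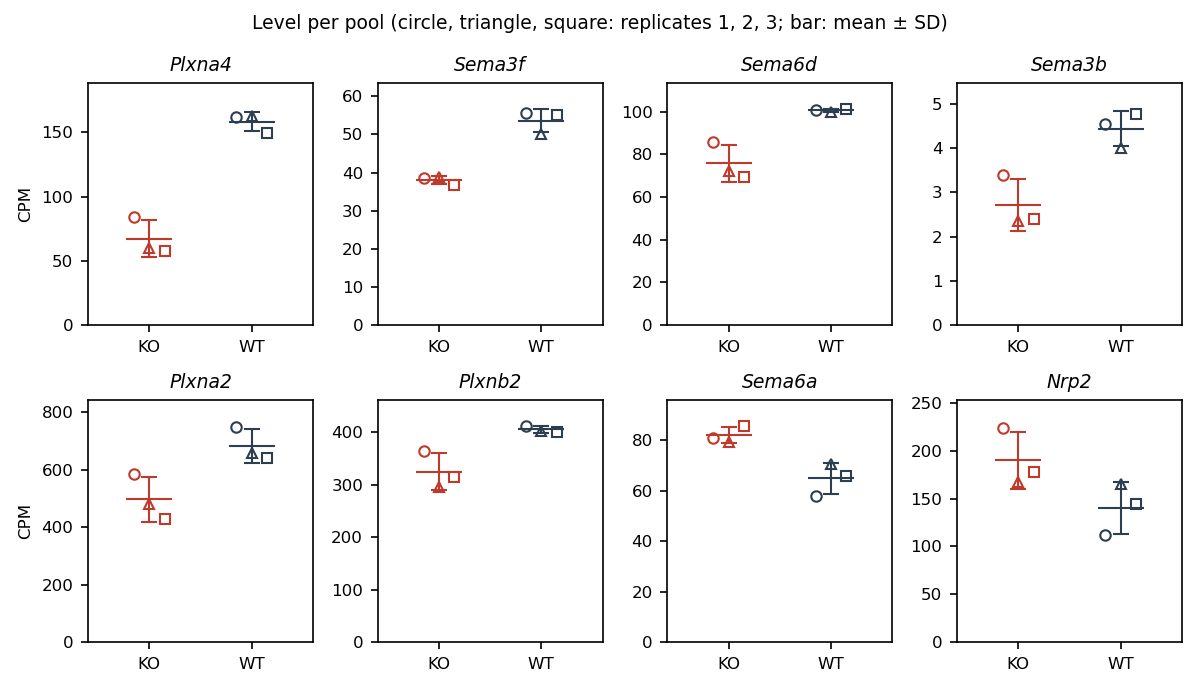
CPM of 8 family genes in each pool, KO on the left of each panel and WT on the right, with the axis from 0 and bars for mean ± SD over 3 pools. Plxna4 (57.5 to 84.1 CPM in KO, 150 to 163 CPM in WT) shows the widest gap, Sema6a and Nrp2 are higher in KO, and KO 1 (circle) is the highest KO pool for most lower genes.

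Of the 7 secreted class 3 ligands 3 fell, 0 rose and 4 were not called, where 10.5% of all tested genes were called lower and 9.72% higher. Sema3f (chromosome 9, 107681500 to 107710475, minus strand), the repellent that acts through Nrp2, had 38.7, 38.7 and 36.8 CPM in KO 1 to 3, against 55.7, 50.1 and 55.1 CPM in WT 1 to 3. The KO pools lay tightly together, KO 1 included, and well below the WT pools (log2 fold change -0.50, SE 0.063, edgeR adjusted p = 0.00122). It was called in all 6 fits that left out 1 pool. Sema3b, its close relative on the same chromosome, had 3.38, 2.36 and 2.39 CPM in KO, against 4.55, 4.003 and 4.77 CPM in WT. It is a low gene, with 86 to 150 counts per KO pool and 134 to 210 per WT pool, and its groups did not overlap (log2 fold change -0.71, SE 0.165, 1.64-fold lower, edgeR adjusted p = 0.0184). Sema3a, the founding repellent of the class and a ligand of Nrp1, had 16.7, 12.6 and 11.3 CPM in KO, against 17.5, 19.8 and 19.3 CPM in WT. KO 1 was nearly level with WT 1, and the other KO pools were clearly lower (log2 fold change -0.48, SE 0.134, edgeR adjusted p = 0.0342, and -0.66 without KO 1). Sema3b lost its call without KO 2, KO 3, WT 1 or WT 3 (edgeR adjusted p from 0.0572 to 0.0762). Sema3a lost it without each pool other than KO 1 (0.0613 to 0.122) and with the length trend removed (0.052, log2 fold change -0.32).

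The remaining class 3 ligands did not pass. Sema3c, which can attract as well as repel, had 30.9, 32.0 and 28.8 CPM in KO and 26.3, 35.3 and 33.0 CPM in WT (log2 fold change -0.04, 95% interval -0.28 to 0.19). Sema3e, which signals through Plxnd1 without a neuropilin, averaged 9.14 ± 1.21 CPM in KO and 10.4 ± 2.1 CPM in WT, Sema3g 5.42 ± 0.648 and 4.65 ± 0.283 CPM, and Sema3d 0.582 ± 0.17 and 0.752 ± 0.108 CPM (SD, n = 3 each, with edgeR adjusted p from 0.232 to 0.42). The intervals of Sema3d (-0.99 to 0.20) and Sema3e (-0.54 to 0.17) include a fall as large as that of Sema3f.

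The class 6 ligands, membrane proteins that bind type A plexins directly, moved in both directions. Sema6a, a ligand of Plxna2 and Plxna4, had 80.9, 79.2 and 85.6 CPM in KO 1 to 3, against 58.0, 70.4 and 65.8 CPM in WT 1 to 3. Every KO pool was above every WT pool, and KO 1 lay between KO 2 and KO 3 (log2 fold change 0.34, SE 0.0745, 1.27-fold, edgeR adjusted p = 0.015). Sema6d (chromosome 2, 124089969 to 124667770, plus strand), a ligand of Plxna1, had 85.8, 72.1 and 69.5 CPM in KO, against 101, 99.6 and 101 CPM in WT. The WT pools were nearly identical and all KO pools were below them (log2 fold change -0.41, SE 0.0774, edgeR adjusted p = 0.00854). Sema6b averaged 59.2 ± 5.46 CPM in KO and 65.9 ± 7.84 CPM in WT, and Sema6c 222 ± 4.84 and 220 ± 2.33 CPM (SD, n = 3 each), with edgeR adjusted p = 0.27 and 0.885. For Sema6c the 95% interval of the log2 fold change, -0.10 to 0.12, was among the narrowest of the family. Sema6a lost its call without KO 3 or WT 3 (edgeR adjusted p = 0.0556 and 0.0553), while Sema6d was called in all 6 fits that left out 1 pool.

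Sema7a, the lipid-anchored ligand of Plxnc1 and of integrins, fell along with its receptor gene. It had 29.3, 26.8 and 24.7 CPM in KO 1 to 3, against 33.2, 33.4 and 34.0 CPM in WT 1 to 3, with no overlap (log2 fold change -0.32, SE 0.074, edgeR adjusted p = 0.0184). Its call was lost in each of the 5 fits that left out a pool other than KO 1 (edgeR adjusted p from 0.0528 to 0.0777). Classes 4 and 5 held no called gene among their 8 members, where 20.2% of all tested genes were called. These are too few genes to set the 2 classes apart from that share. Sema4c, a ligand of Plxnb2, had 133, 123 and 129 CPM in KO and 127, 127 and 127 CPM in WT (log2 fold change 0.01, 95% interval -0.11 to 0.12, edgeR adjusted p = 0.938), and shares 7.27% of its exonic length with the opposite-strand gene D430040D24Rik. Sema4g had 124, 116 and 118 CPM in KO and 122, 134 and 133 CPM in WT (log2 fold change -0.12, edgeR adjusted p = 0.154), and was called without KO 1 (-0.15, edgeR adjusted p = 0.0334). Sema4f, at 17.9 ± 1.23 CPM in KO and 20.9 ± 3.06 CPM in WT, was called only without WT 1 among all fits run (edgeR adjusted p = 0.04995 there and 0.19 with all pools). Sema4d, the ligand of Plxnb1 known also from immune cells, averaged 15.3 ± 1.6 CPM in KO and 16.5 ± 1.05 CPM in WT. Sema4a averaged 46.3 ± 2.64 and 44.0 ± 2.91 CPM, and Sema4b 34.9 ± 1.57 and 37.6 ± 0.465 CPM. Sema5a and Sema5b, which carry thrombospondin repeats, averaged 29.96 ± 5.6 and 172 ± 5.07 CPM in KO and 32.7 ± 4.36 and 167 ± 4.03 CPM in WT (edgeR adjusted p = 0.526 and 0.642).

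RefSeq promoter windows (GRCm38.p6, 250 bases before to 50 after an annotated start) were used for 26 of the 31 genes, in 37 windows, and cover 7 of the 11 called genes. No window was available for Plxna4, Sema3f, Sema3b and Plxna1. Sema6a, the only gene called higher, was left out when the set of windows was made. The windows of called genes are therefore all from genes called lower. The GC contents and motif counts below do not cover Sema6a. Windows of some called genes are shown as examples. The 9 windows of called genes had a GC content from 41.3% to 70.3%. The 2 lowest, of Sema3a (41.3%) and the downstream window of Sema6d (46.7%), lie far inside their genes, and the next lowest had 54.3%. The range is therefore not one of starts of whole genes. Capitals mark CG dinucleotides, and each sequence runs 5′ to 3′ on the gene's own strand, which is the plus strand for all shown. Sema3a (chr5:13396534-13396833) has 2 of them and a GC content of 41.3%, and this window lies inside the gene as GENCODE draws it. Sema6d (chr2:124089719-124090018, the upstream of its 2 windows) has 14, Sema7a (chr9:57939862-57940161) has 23 and Plxna2 (chr1:194619579-194619878) has 25, with GC contents of 54.3%, 67.3% and 64.7%. The Plxna2 window also lies inside its gene, which starts at 194618218 in GENCODE.
Sema3a: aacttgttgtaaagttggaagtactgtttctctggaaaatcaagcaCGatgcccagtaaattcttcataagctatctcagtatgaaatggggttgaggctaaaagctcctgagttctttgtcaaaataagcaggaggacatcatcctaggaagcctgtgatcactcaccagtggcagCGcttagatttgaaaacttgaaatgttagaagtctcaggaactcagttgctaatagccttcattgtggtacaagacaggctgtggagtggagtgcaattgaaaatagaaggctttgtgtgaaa
Sema6d: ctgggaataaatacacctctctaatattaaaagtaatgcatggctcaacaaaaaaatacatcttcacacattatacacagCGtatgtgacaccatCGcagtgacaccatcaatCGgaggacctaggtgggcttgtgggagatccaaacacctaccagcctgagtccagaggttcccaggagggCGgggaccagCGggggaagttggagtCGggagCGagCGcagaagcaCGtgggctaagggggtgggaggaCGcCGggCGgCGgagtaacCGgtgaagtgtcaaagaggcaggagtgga
Sema7a: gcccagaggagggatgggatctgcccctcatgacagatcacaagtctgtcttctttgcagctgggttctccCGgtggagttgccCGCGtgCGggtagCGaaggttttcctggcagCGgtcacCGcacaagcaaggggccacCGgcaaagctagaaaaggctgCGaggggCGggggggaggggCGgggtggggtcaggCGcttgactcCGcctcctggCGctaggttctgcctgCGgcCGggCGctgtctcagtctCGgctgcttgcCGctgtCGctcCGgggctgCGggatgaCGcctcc
Plxna2: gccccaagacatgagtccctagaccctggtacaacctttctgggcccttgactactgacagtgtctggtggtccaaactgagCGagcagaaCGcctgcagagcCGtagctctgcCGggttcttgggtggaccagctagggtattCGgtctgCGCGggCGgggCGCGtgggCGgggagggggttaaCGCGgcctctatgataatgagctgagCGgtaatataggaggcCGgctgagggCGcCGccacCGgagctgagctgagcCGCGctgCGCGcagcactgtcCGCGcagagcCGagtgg

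The median window of the family had 15 CG dinucleotides and a GC content of 63.7%, against 7 and 52.7% over all 32851 windows. Motifs were searched as exact letters on both strands, 5 in all. CAGCTG, the core of many proneural binding sites, was in 6 of 37 family windows (16.2%) and in 16.3% of all windows, and Sema7a, printed above, holds 1 before its start. CACGTG was in 3 of 37 (8.11%) and in 7.15% of all windows, and the Sema6d window above holds 1 just before its start. CTCAAG was in 3 of 37 (8.11%) against 15.9%, CCAAT in 7 of 37 (18.9%) against 37.4%, and TAATTA in 0 of 37 against 5.29%. None of the 5 motifs was in the windows of Sema3a or Plxna2. A match is a match of letters and not a measured binding site.

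Genes that act beside or below the receptors were followed as a list of 53, chosen for their role in semaphorin signalling. Of these 6 rose, 5 fell and 42 were not called, so 20.8% were called where 20.2% of all tested genes were, and their median log2 fold change was -0.05. All 11 called genes changed by less than 1.5-fold. Of those that rose, Erbb2, a receptor kinase that can couple to type B plexins, had 16.5, 15.9 and 15.2 CPM in KO 1 to 3, against 10.5, 10.3 and 11.5 CPM in WT 1 to 3 (log2 fold change 0.56, SE 0.0837, edgeR adjusted p = 0.00279). Gipc1, an adaptor that binds the tail of Nrp1 and of plexins, had 114, 117 and 124 CPM in KO, against 94.5, 94.99 and 96.5 CPM in WT (log2 fold change 0.31, edgeR adjusted p = 0.00563). Dpysl4, of the CRMP family of cytoskeletal mediators, had 197, 197 and 225 CPM in KO, against 152, 169 and 164 CPM in WT (log2 fold change 0.35, edgeR adjusted p = 0.0105). None of these 3 had overlapping groups.

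The small GTPase genes Rnd3 and Rap1a and the actin-severing gene Cfl1 also rose, with log2 fold changes of 0.19, 0.26 and 0.25 (edgeR adjusted p = 0.0347, 0.0455 and 0.0435). Arhgef11 and Arhgef12, the exchange factors that bind type B plexins, both fell. Arhgef11 had 76.6, 66.8 and 64.9 CPM in KO 1 to 3, against 97.4, 89.9 and 89.4 CPM in WT 1 to 3 (log2 fold change -0.41, SE 0.0724, edgeR adjusted p = 0.00608), and Arhgef12 averaged 174 ± 30.6 CPM in KO and 224 ± 9.56 CPM in WT (SD, n = 3 each, log2 fold change -0.37, edgeR adjusted p = 0.0406). The Rac exchange factor gene Tiam1 (-0.37, edgeR adjusted p = 0.0141), the actin-oxidising enzyme gene Mical3 (-0.31, 0.0301) and the adhesion gene Nrcam (-0.38, 0.0392), whose product binds Nrp2, fell as well. Other mediators of the same kinds were not called, among them Crmp1 at 1118 ± 29.03 CPM in KO and 1095 ± 50.1 CPM in WT and Dpysl2 at 253 ± 27.7 and 249 ± 6.94 CPM (edgeR adjusted p = 0.763 and 0.823). Dpysl3 and Dpysl5, also of the CRMP family, were not called in the main fit or under most alternatives. DESeq2 called both lower (log2 fold change -0.296 and -0.221, adjusted p = 0.0178 and 0.0427). So did the fit without KO 1 (-0.421 and -0.306, edgeR adjusted p = 2.3e-05 and 0.000236). Erbb2, Gipc1, Dpysl4 and Arhgef11 were called in all 6 fits that left out 1 pool. Rnd3, Rap1a, Cfl1, Arhgef12, Mical3 and Nrcam were called in 1 of 6, the fit without KO 1, and lost the call in the others (edgeR adjusted p from 0.0645 to 0.171), and Tiam1 was called in 2 of 6 (0.0541 to 0.0623 in the others). With the length trend removed, Arhgef12, Mical3, Nrcam, Cfl1 and Rap1a were not called (edgeR adjusted p from 0.0507 to 0.315). Their log2 fold changes were then -0.21 in Arhgef12, -0.067 in Mical3, -0.22 in Nrcam, 0.19 in Cfl1 and 0.19 in Rap1a, so Mical3 moved the most of the 5.

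**Figure D4:**
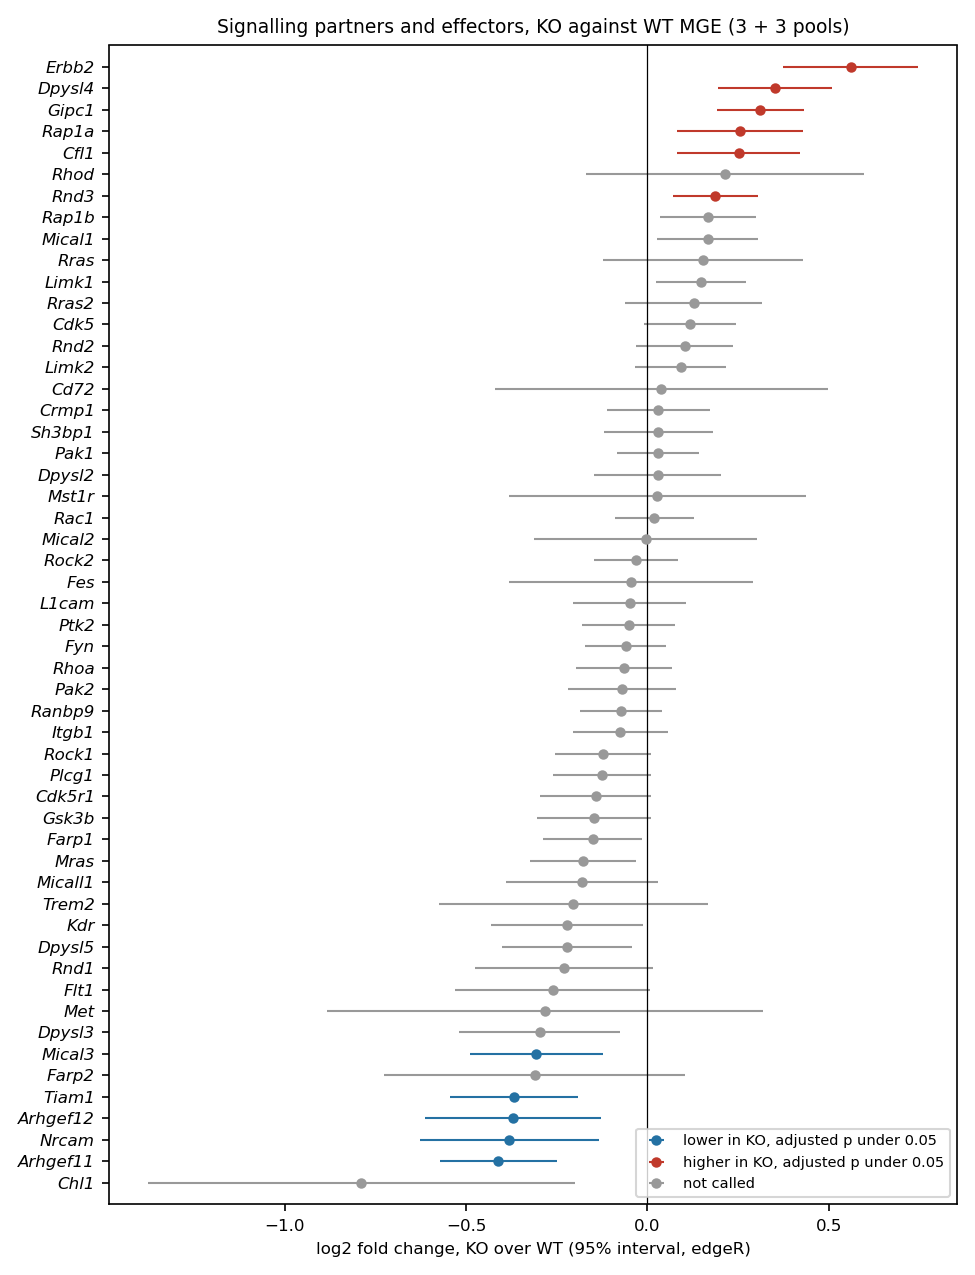
Log2 fold change of KO over WT with 95% intervals for all 53 signalling partners and effectors, from the most positive at the top. Red marks the 6 called higher, led by Erbb2 at 0.56, and blue the 5 called lower. Chl1 has the lowest value but a wide interval, and was not called in the main fit shown here.

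Markers of the cell types in and around the MGE were measured beside the family. For comparison with the counts below, 10.5% of all tested genes were called lower and 9.72% higher. In the short lists of endothelium, microglia and oligodendrocyte precursors, the called counts differ from these shares by few genes. Summed markers of striatal and lateral eminence neurons were at 814 to 1053 CPM in KO and 1275 to 1568 CPM in WT, and 11 of 14 were called lower. Of 15 postmitotic neuron genes 5 were lower and 1 higher (6851 to 7511 CPM in KO, 7495 to 8080 CPM in WT), and of 17 genes of the MGE and its interneurons 7 were lower and 2 higher (4713 to 5185 CPM in KO, 5437 to 5821 CPM in WT). Radial glia genes summed to 3713 to 4232 CPM in KO and 2814 to 3026 CPM in WT, with 11 of 14 higher and 1 lower. For vessels, through which Plxnd1, Nrp1 and Sema3g can enter, 3 of 13 endothelial genes were lower (298 to 342 CPM in KO, 351 to 359 CPM in WT) and 7 of 10 mural genes were lower (197 to 263 CPM in KO, 242 to 254 CPM in WT). Microglia genes summed to 35.1 to 40.9 CPM in KO and 43.9 to 46.7 CPM in WT (2 of 11 lower). Those of oligodendrocyte precursors summed to 238 to 277 CPM in KO and 218 to 231 CPM in WT (1 of 9 higher, 2 lower). Cortical excitatory genes summed to 102 to 172 CPM in KO and 53.2 to 101 CPM in WT (6 of 14 higher), and meningeal genes to 18.3 to 19.3 CPM in KO and 18.4 to 19.1 CPM in WT (0 of 5 tested called). In each list, 0 markers were at 0 in all libraries. The part of these cell types in the family's changes was not tested.

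**Figure D5:**
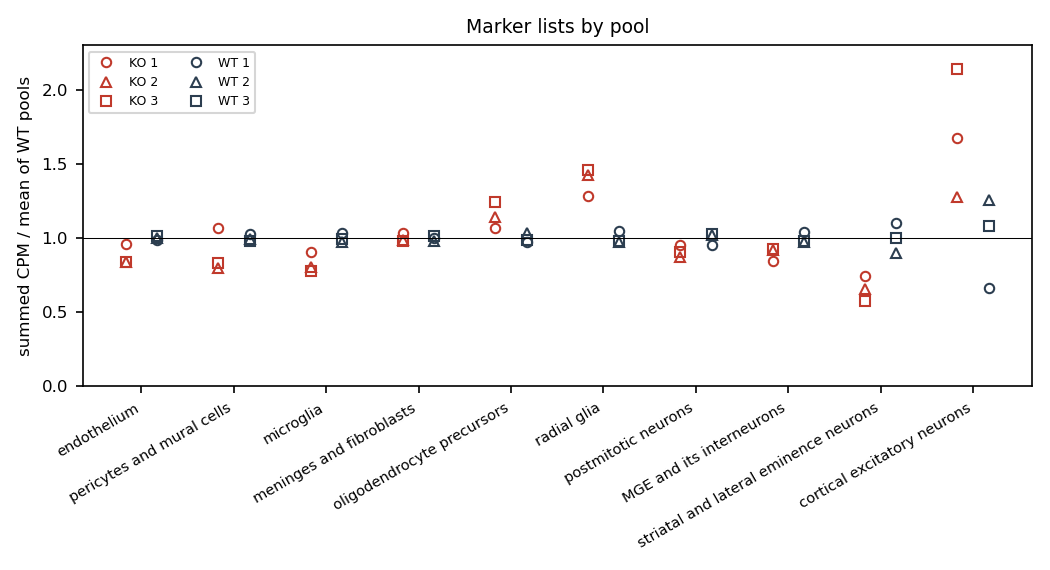
Summed CPM of each marker list divided by the mean of the WT pools, 1 point per pool with KO left of WT. Striatal and lateral eminence markers are lower in all KO pools, radial glia markers are higher, and KO 1 (red circle) lies closest to WT in both.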

How the data were processed

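The submitters' processing notes name the build GRCm38 and the tools DESeq2, featureCounts, STAR (2.5.2b), Subread (1.5.2) and Trimmomatic (0.36). Which annotation release and strand setting were used is not stated, so a gene and its antisense partner cannot be told apart. The authors deposited raw read counts per gene, which were used here. A deposited normalized table, in which 2 columns share 1 name, was not used.

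Symbols, positions and exonic lengths came from GENCODE M21, in which 48970 of 49315 gene IDs were found. All 31 symbols matched 1 ID each, and 7 of these genes share exonic bases with another gene. After filterByExpr (at least 10 counts, and 15 in total) and TMM scaling, KO was tested against WT in edgeR 4.0.16 (R 4.3.3) by a robust quasi-likelihood fit without a block. The SE is the log2 fold change over the square root of F. The procedure was also run on simulated counts with a fitted spread, the outcome of which is not given here. The simulation held no outlying pool, so it cannot show how KO 1 affects the calls. Alternatives used limma 3.58.1, DESeq2 1.42.0, other scalings and filters, and each library left out. A correction for exonic length was added after the data had been seen. RPKM values were computed here.

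The family, the lists and the named genes were chosen with earlier results of these data known. All 31 genes could be named, with up to 8 called signalling partners per direction. Crmp1, Dpysl2, Dpysl3, Dpysl5 and Chl1 were named after their values were seen. Each library is a separate pool of embryos per the labels.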

Additional observations from a re-analysis of the deposited data

How the results depend on the processing

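Tested family genes were refitted in 479 pairs with an alternative. In 418 the sign and the call stayed as reported, in 43 the call was lost, in 5 it was gained and in 13 the sign changed, all 13 in genes that were not called. Plxna4, Sema3f and Sema6d were called under all 16 alternatives. DESeq2 gave 2 higher family genes and 8 lower partners. Chl1, not called in the main fit, was called lower by DESeq2 (log2 fold change -0.788, adjusted p = 0.0342). It was also called by limma voom, by a fit that was not robust, with the stricter filter, with protein-coding genes only and without WT 1. Under the other alternatives Chl1 was not called (edgeR adjusted p from 0.0685 to 0.22). The fit with the replicate block gave 1 higher and 7 lower family genes (without Sema3a, Plxna3 and Plxnc1, edgeR adjusted p = 0.0689, 0.0775 and 0.0582), and 3 higher and 3 lower partners (without Rnd3, Cfl1, Rap1a, Mical3 and Nrcam, edgeR adjusted p from 0.0537 to 0.0929). Deviations of same-numbered KO and WT libraries correlated at -0.076, -0.123 and 0.026, so the numbers give no sign of pairs. With the length trend removed, chosen after seeing the data, 2 family genes were higher (Nrp2 added, edgeR adjusted p = 0.0272), 7 were lower (without Sema3a, Plxna3 and Plxnc1, edgeR adjusted p = 0.052, 0.163 and 0.0577) and 2 partners were lower. Fits without 1 library called 0 to 1 family genes higher and 3 to 12 lower, and 3 to 11 higher and 1 to 17 lower partners, with the highest counts of lower genes without KO 1 and fewer samples in each fit. Signs changed with the length trend removed in Sema3c (0.033), Sema5a (0.074) and Plxnb1 (0.097). Over the 6 fits without 1 library, log2 fold changes ran from -0.155 to 0.044 in Sema3c, -0.013 to 0.037 in Sema4c, -0.279 to 0.002 in Sema5a, -0.001 to 0.034 in Sema6c, -0.178 to 0.142 in Plxna1, -0.063 to 0.005 in Plxnb1 and -0.043 to 0.143 in Nrp1. The causes were not tested.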
